A study of Mus musculus with 26 samples.

Results

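The genes described are the members of 4 pairs of neighbours in the mouse genome. Cenpb is followed by Spef1, Mfge8 by Hapln3, Phf20 by Cnbd2, and Ltb4r2 by Ltb4r1. They are 8 of 20430 genes in the RNA tables and 4 of 6399 neighbouring pairs for which the authors deposited a read-in estimate. The pairs were chosen by their read-in estimates, which were computed from the RNA libraries, so the estimates, the RNA changes and every ratio that holds RNA are given as a description with no test. Ribosome footprints come from separate libraries that played no part in the choice, and are tested.

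The cells were NIH3T3, an established line of mouse embryonic fibroblasts. PolyA-selected RNA was sequenced from cells treated with H2O2 (oxidative stress) for 2 h or 7 h, cells treated with KCl (osmotic stress) for 2 h or 7 h and an untreated control shared by both, and from cells heated to 44 C for 2 h or to 42 C for 8 h with a control of their own. Ribosome footprints are the mRNA fragments that ribosomes shield from digestion. The labelled footprint libraries are those of the H2O2, KCl and shared control groups. Each of the 8 RNA groups and 5 footprint groups had 2 libraries. The labels give no concentration of H2O2 or KCl and do not say whether replicates came from separate cultures, so p-values measure the spread between these libraries, which may be technical.

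When transcription by RNA polymerase II does not stop after the polyadenylation site, it makes a downstream-of-gene transcript, or DoG. Stress is known to weaken this stop at many genes. Where the next gene lies close by on the same strand, the polymerase can run into it (read-in), and reads over that gene can then come from RNA that began at the upstream neighbour. RNA of this kind is known to stay in the nucleus largely unprocessed, away from the ribosomes.

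RNA libraries held 24441877 to 45244430 counts and footprint libraries 1460751 to 5168537, the lowest being the first library of H2O2 at 2 h. Replicates correlated at 0.994 to 0.996 (RNA) and 0.957 to 0.978 (footprints) over genes on the log2 count-per-million (CPM) scale. Of 10 fibroblast markers, 9 had a median of at least 1 TPM (the transcript-per-million scale, a level per length) and Lum did not. Of 4 markers of blood cells, among which the leukotriene receptors are best known, Ptprc had at most 0.05 TPM, Lyz2 at most 0.22 and Cd3e was at 0, while Cd68, a lysosomal protein of macrophages, had 5.32 to 44.68. Prm2 and Tnp1, made in the testis, where Spef1 and Cnbd2 are known, were also at 0 in all 16 RNA libraries, and 6 markers of ciliated or testis cells summed to 0.37 to 2.3 TPM. In bulk RNA, more cells with a transcript and more of it per cell cannot be told apart.

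Spef1 encodes a microtubule-binding protein of cilia and flagella, and Cenpb the protein that binds the CENP-B box of centromeric DNA. In GRCm38, Cenpb lies on the minus strand at chr2:131177289-131180067 and Spef1 at chr2:131170261-131174810, with 2478 bases between them. The 250 bases before the annotated start of Spef1, chr2:131174811-131175060 on the minus strand, therefore lie inside the stretch that a transcript from Cenpb must cross. They are shown because RNA over Spef1 can begin there or, in read-in, at Cenpb. They hold none of the 3 motifs searched, which are named after the window of Ltb4r1, so no base is in capitals.

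Spef1: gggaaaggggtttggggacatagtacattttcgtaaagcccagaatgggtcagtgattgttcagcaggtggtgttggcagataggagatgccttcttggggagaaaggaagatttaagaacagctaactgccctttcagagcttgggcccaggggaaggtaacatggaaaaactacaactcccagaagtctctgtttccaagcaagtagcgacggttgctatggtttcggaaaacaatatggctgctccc

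Ltb4r1 encodes BLT1, the high-affinity receptor for leukotriene B4, and Ltb4r2 encodes BLT2, a receptor of lower affinity for the same lipid. Both are G protein-coupled receptors. Ltb4r2 lies at chr14:55757922-55764066 and Ltb4r1 on the plus strand at chr14:55765962-55768492, 1895 bases apart. The 250 bases before the start of Ltb4r1, chr14:55765712-55765961, likewise lie inside the gap. Capitals mark a match on the opposite strand to TGACNNNGC, the core letters of the antioxidant response element, 210 bases before the start.

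Ltb4r1: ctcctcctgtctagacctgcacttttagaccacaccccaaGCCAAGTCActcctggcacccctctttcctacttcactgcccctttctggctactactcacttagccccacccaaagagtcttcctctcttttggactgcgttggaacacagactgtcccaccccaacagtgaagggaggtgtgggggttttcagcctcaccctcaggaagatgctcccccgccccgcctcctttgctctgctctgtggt

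TGACNNNGC, on both strands, was in 10.2% of the 32851 windows of this length in the RefSeq table of GRCm38.p6. The letters AATAAA (sense strand, the core of most polyadenylation signals, in 10.4% of windows) and GAANNTTC (both strands, inverted repeats of the heat shock element, in 6.69%) were in none of the windows of the 6 members that the table gave, and a motif's absence says only that these letters are not in this window. Windows for Cnbd2 and Ltb4r2 were not used here. Of the other pairs, Mfge8 (chr7:79133768-79149060) and Hapln3 (chr7:79117027-79133173) lie on the minus strand, 594 bases apart. Phf20 lies on the plus strand at chr2:156196647-156309953 and Cnbd2 at chr2:156311946-156375638, 1992 bases apart. All positions of genes and windows are those of RefSeq.

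The upstream genes were much higher than their downstream neighbours in all 16 RNA libraries for Cenpb and Mfge8. Phf20 was higher than Cnbd2 in 14 of them, and Ltb4r2 was higher than Ltb4r1 in 5. Cenpb had 78.2 to 170 TPM, Mfge8 392 to 577, Phf20 19.8 to 44.1 and Ltb4r2 from 0 to 24.2.

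**Figure D1:**
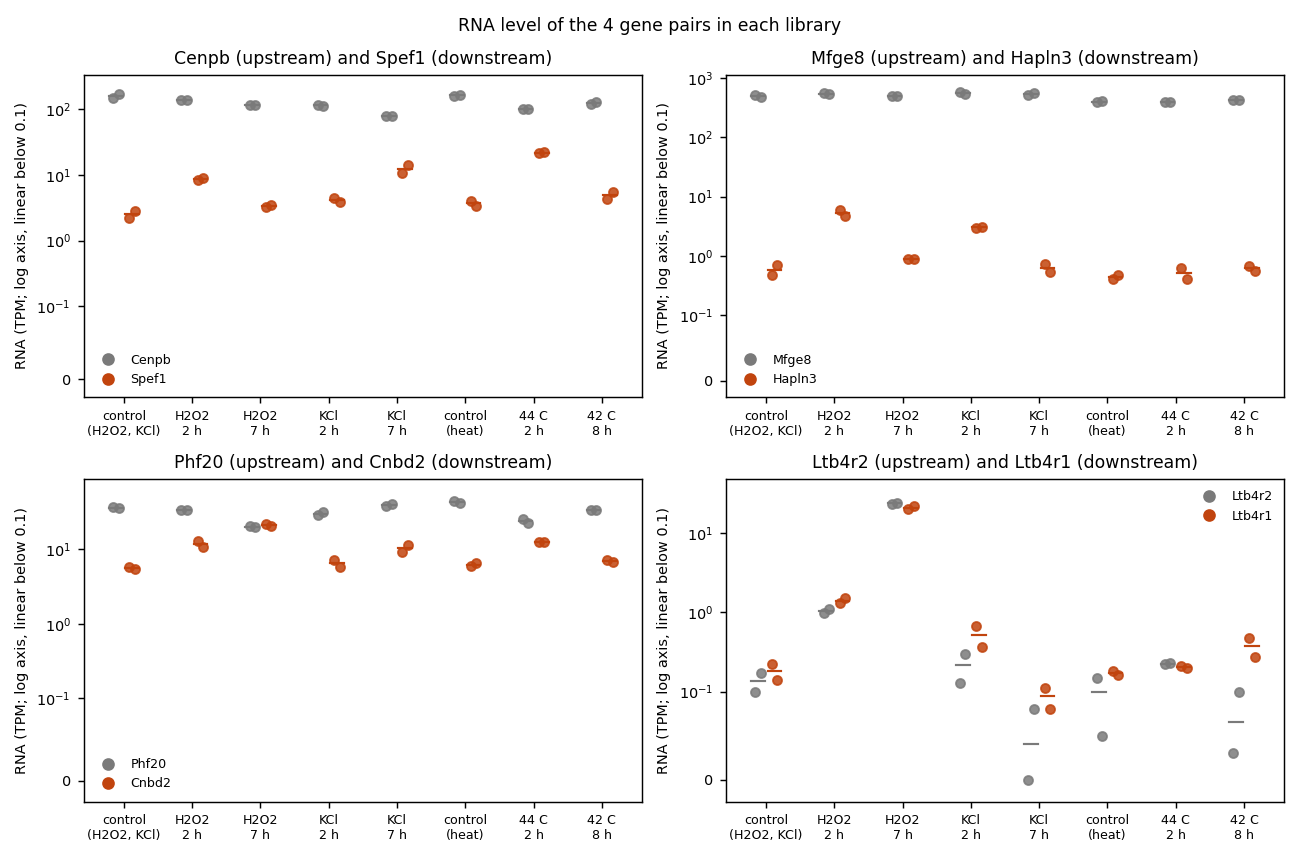
RNA level in TPM (log axis, linear below 0.1) of the upstream gene (grey) and the downstream gene (orange) of each pair, by group. Each point is 1 library and each short line the mean of 2. Spef1 peaks at 44 C, Hapln3 at H2O2 2 h, Cnbd2 at H2O2 7 h, and Ltb4r2 and Ltb4r1 rise together at H2O2 7 h to between 19.83 and 24.16 TPM.

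Spef1 RNA was highest after 2 h at 44 C. It had 21.69 and 22.14 TPM there against 4.06 and 3.31 in the heat control. KCl for 7 h gave 10.80 and 13.99 TPM, and H2O2 for 2 h gave 8.36 and 9.09, against 2.23 and 2.83 in the shared control. The levels at H2O2 7 h (3.26 and 3.54), KCl 2 h (4.39 and 3.87) and 42 C (4.26 and 5.58) were nearer to their controls, yet in none of the 6 stress groups did the values overlap with the control. On the log2 count scale the difference from control was 2.50 (SE 0.11) at 44 C, 2.40 (SE 0.15) at KCl 7 h, 1.80 (SE 0.15) at H2O2 2 h, 0.81 (SE 0.17) at KCl 2 h, 0.58 (SE 0.14) at 42 C and 0.51 (SE 0.17) at H2O2 7 h. Cenpb went the other way in each of the 6 groups. Its log2 differences were -0.91 at KCl 7 h, -0.76 at 44 C, -0.38 at H2O2 7 h, -0.37 at KCl 2 h and -0.21 at H2O2 2 h and at 42 C, and its values did not overlap with the controls either. With 2 libraries against 2, values can fail to overlap without any change. How many of all genes did so was not counted, for these or for later statements of overlap.

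Hapln3, a link protein that joins hyaluronan to proteoglycans in the matrix, was raised most at 2 h of H2O2 and KCl. It had 5.94 and 4.72 TPM after 2 h of H2O2 and 3.01 and 3.10 after 2 h of KCl, against 0.47 and 0.70 in the control. By 7 h the levels were 0.88 and 0.90 (H2O2) and 0.72 and 0.53 (KCl), and heated cells and their controls had 0.40 to 0.68. Only the 2 h groups of H2O2 and KCl stood more than 2 TPM above the rest. The log2 differences were 2.55 (SE 0.19) and 2.14 (SE 0.20) at 2 h. At 7 h they were 0.58 (SE 0.24) for H2O2 and 0.17 (SE 0.26) for KCl. In heat they were 0.70 (SE 0.28) at 42 C and 0.17 (SE 0.29) at 44 C. Mfge8, a secreted protein that bridges dying cells to the integrins of the cells that engulf them, differed from its control by -0.09 to 0.28 on the log2 scale in all 6 groups.

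Cnbd2, named for its cyclic nucleotide-binding domain, followed H2O2. It had 5.74 and 5.49 TPM in the control, 13.08 and 10.63 after 2 h and 22.10 and 20.61 after 7 h. At 44 C it had 12.55 and 12.70 against 5.89 and 6.59 in the heat control, and KCl 7 h gave 9.30 and 11.35. At 42 C (7.08 and 6.81) and KCl 2 h (7.26 and 5.87) it lay just above the control, without overlap. The log2 differences were 2.62 (SE 0.13) at H2O2 7 h, 1.61 (SE 0.13) at H2O2 2 h, 0.89 (SE 0.12) at 44 C, 0.73 (SE 0.15) at KCl 7 h, 0.34 (SE 0.16) at KCl 2 h and 0.27 (SE 0.13) at 42 C. Phf20, which reads methylated lysines for the histone acetyltransferase MOF, was lowest where Cnbd2 was highest, with 20.35 and 19.84 TPM at H2O2 7 h against 36.54 and 36.18 (log2 difference -0.77, SE 0.059). Against its own control it fell most at 44 C (-0.91), and it differed by -0.12 at H2O2 2 h, -0.19 at KCl 2 h and -0.16 at 42 C. At KCl 7 h Phf20 rose, as Cnbd2 did, by 0.23.

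Both leukotriene receptors were near 0 in unstressed cells. Ltb4r2 had 3 and 4 counts (0.10 and 0.17 TPM) in the control libraries, 0.97 and 1.09 TPM after 2 h of H2O2, and 23.31 and 24.16 TPM after 7 h. Ltb4r1 had 0.22 and 0.14, then 1.31 and 1.5, then 19.83 and 22.07 TPM. Neither gene exceeded 0.67 TPM in any KCl, heat or heat control library, so the H2O2 groups stood clear of all others. At H2O2 7 h the log2 differences were 8.31 (SE 0.23) for Ltb4r2 and 7.09 (SE 0.19) for Ltb4r1. Those sizes rest on 7 and 13 control counts. The 4 blood cell markers summed to 43.8 TPM at H2O2 7 h and 29.0 at H2O2 2 h against 9.84 in the control, nearly all of it Cd68, and the 10 fibroblast markers to 4160 at H2O2 7 h against 9210. Ptprc and Cd3e were at or near 0 in all of these libraries. In the heat experiment neither gene passed the filter on low counts.

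The nearest genes outside the pairs did not share these levels. Nop9, a ribosome biogenesis factor that ends 2287 bases before Ltb4r2, had a log2 difference of 0.95 at H2O2 7 h, and Adcy4, 563 bases after Ltb4r1, one of 0.39 at 0.505 TPM in the control. Cideb (chr14:55754052-55758424) shares 503 bases with Ltb4r2 and had 2 and 2 RNA counts at H2O2 7 h, with 0 and 0 footprints. Cdc25b, on the other side of Cenpb, had -1.90 at H2O2 7 h and -0.27 at 44 C. Acan, 1927 bases after Hapln3, had at most 0.13 TPM as the mean of any RNA group. Abhd2, Rbm39 and Epb41l1 had log2 differences of -0.73 to 0.83 across the 6 contrasts.

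The deposited read-in estimate is a ratio, and its formula is not in the sources used here. The deposited tables also give 2 true or false calls for each pair and library, a DoG call and a read-in call. Read-in was called 1415 times over the 6399 pairs, never without a DoG call, and with the downstream gene at 4.02 TPM or more. Conversely, 17038 DoG calls at or above that TPM carried no read-in call, so other criteria apply as well. The working name of these pairs, those with the highest estimates, did not hold over all pairs. By their highest mean over the 2 libraries of a group they ranked 159 (Cenpb to Spef1), 27 (Mfge8 to Hapln3), 133 (Phf20 to Cnbd2) and 153 (Ltb4r2 to Ltb4r1) of 5885 pairs. Among the 226 pairs with a read-in call in both libraries of a group, their ranks by the highest called mean were 9, 11, 4 and 23.

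The pairs with the highest means had downstream genes near 0: Ehd4 to Sptbn5 reached 236 with Sptbn5 at 0.025 TPM, Wdr18 to Grin3b 142 with Grin3b at 0.065 TPM, and Pgp to Bricd5 87.6 with Bricd5 at 0.10 TPM. Among called pairs outside the 4, Pcna to Tmem230 (4.06), B4galt2 to Ccdc24 (2.84) and Zmynd19 to Dph7 (2.66) had the highest means. A high estimate thus did not stand for a high level of the downstream gene.

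**Figure D2:**
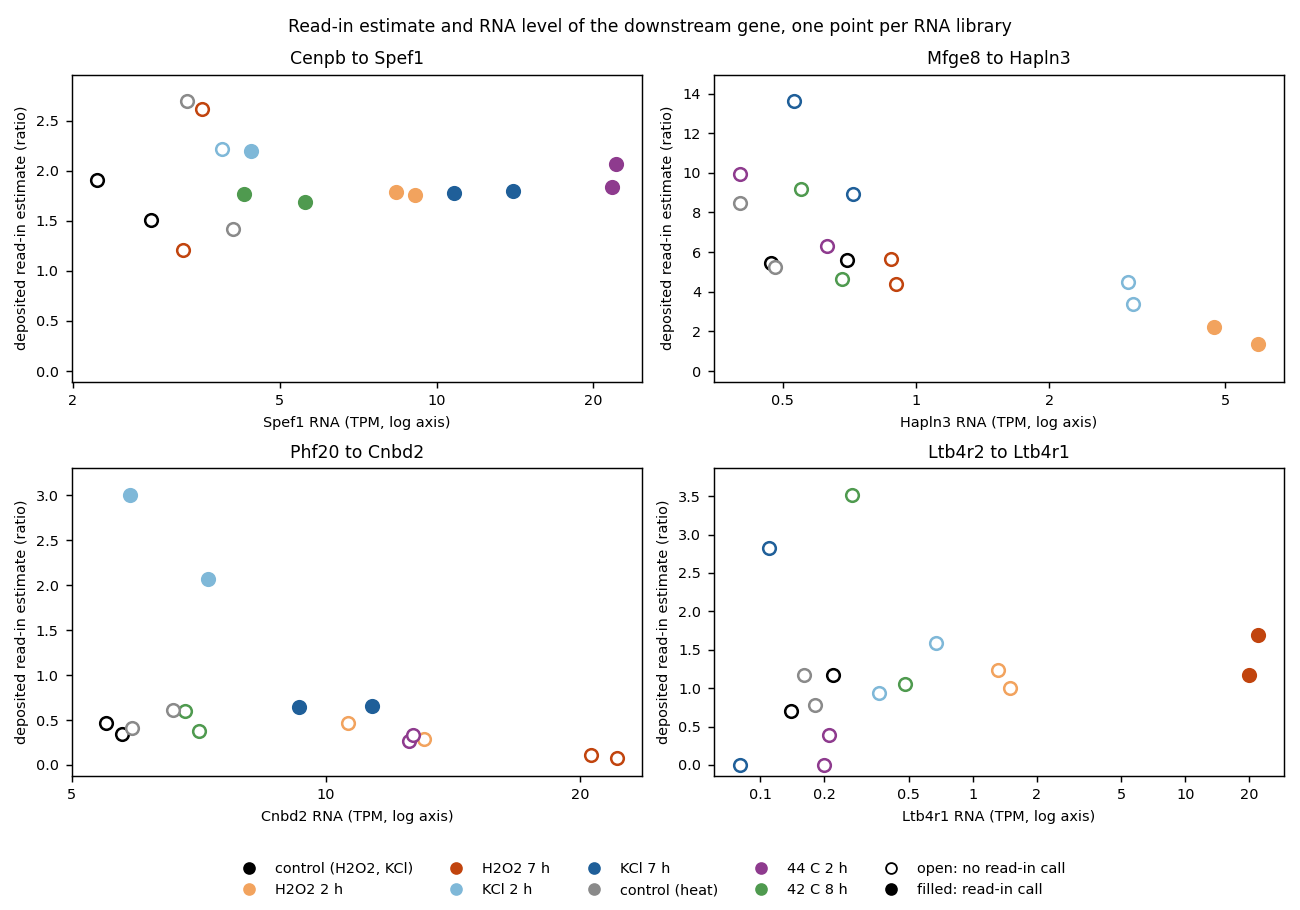
Deposited read-in estimate (a ratio, vertical axis) against the RNA level of the downstream gene (TPM, log axis) for each pair, 1 point per RNA library, coloured by group and filled where the authors called read-in. For Cenpb to Spef1 the estimate stays between 1.21 and 2.69 over the whole range of levels, while for Mfge8 to Hapln3 the 2 called libraries have the lowest estimates, 1.37 and 2.21.

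The estimate from Cenpb into Spef1 lay between 1.21 and 2.69 (median 1.79) in the 16 libraries, with 1.84 and 2.07 at 44 C against 1.42 and 2.69 in the heat control, and 1.78 and 1.80 at KCl 7 h against 1.91 and 1.51 in the shared control. The heat control libraries stood far apart and enclosed those of 44 C. A DoG call was present in 11 libraries and a read-in call in 9. The libraries called were both of H2O2 2 h, 44 C, 42 C and KCl 7 h, and the first of KCl 2 h. Within the DoG calls the read-in calls divided by level: the lowest called library had 4.26 TPM of Spef1, and the highest not called had 3.87.

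The estimate multiplied by the count of Spef1 was, in all 16 libraries, a whole multiple of 2.264 within a tolerance of 0.01 of a step. If the count of Spef1 is the denominator of the ratio, which is not stated, this product is the numerator in steps. There were 92 and 72 steps in the shared control, 210 and 240 at H2O2 2 h, 258 and 268 at KCl 7 h, and 608 and 679 at 44 C against 111 and 145 in the heat control. Scaled to library size as CPM is, there were 17.6 and 20.7 steps at 44 C against 2.6 and 4.02 in the heat control, and 8.57 and 11.0 at KCl 7 h against 2.03 and 2.01 in the shared control. Both the product and the count of Spef1 were thus higher in these groups than in their own controls, and the ratio at 44 C lay within the spread of its control. The product contains the count of Spef1, so its rise is not an observation apart from that count. No such step was found for the other 3 pairs.

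From Mfge8 into Hapln3 the estimate ran from 1.37 to 13.6 (median 5.52), and a DoG was called in all 16 libraries. A read-in call was given in only 2, those of H2O2 2 h. They had the lowest estimates of the 16, 1.37 and 2.21, and the highest Hapln3, 5.94 and 4.72 TPM. The next libraries, of KCl 2 h, had estimates of 4.51 and 3.37 with Hapln3 at 3.01 and 3.10 TPM and no call. The calls thus went with the level of Hapln3 and not with a high estimate.

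From Phf20 into Cnbd2 the estimate was 0.0758 to 3.0 (median 0.439), with 10 DoG and 4 read-in calls, all 4 under KCl. KCl 2 h had 2.07 and 3.0 and KCl 7 h 0.649 and 0.656. The highest estimate with a DoG call and no read-in call was 0.599, in the second library of 42 C. The lowest estimates, 0.0758 and 0.108 with no DoG call, were at H2O2 7 h, where Cnbd2 RNA was highest. The group with the highest estimate (KCl 2 h) had a Cnbd2 level close to the control. The estimate is a ratio of unknown formula, so a low value where Cnbd2 RNA is high does not give the amount of read-in.

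From Ltb4r2 into Ltb4r1 the estimate was 0 to 3.51 (median 1.12). DoG calls were given in the 4 H2O2 libraries and read-in calls in the 2 of H2O2 7 h, with estimates of 1.17 and 1.69. The 2 h libraries had 1.24 and 1.00 and no read-in call, at 1.31 and 1.5 TPM of Ltb4r1. Estimates in libraries with fewer than 15 counts of Ltb4r1 spread over the whole range, so they carry little precision. The deposited tables also hold the pair of Nop9 with Ltb4r2, which had no read-in call in any library. Its estimate was 0.105 and 0.127 at H2O2 7 h, against 4.80 and 5.04 in the control, where Ltb4r2 had 3 and 4 counts.

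Of the 8 genes, 5 had enough footprints to pass the filter on low counts, namely Cenpb, Mfge8, Phf20, Cnbd2 and Ltb4r2. Spef1, Hapln3 and Ltb4r1, all downstream genes, did not, and are described by their counts. Ltb4r2 passed only through its libraries of H2O2 7 h, the group where it was high, so its place among the tested genes is no support for its rise.

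**Figure D3:**
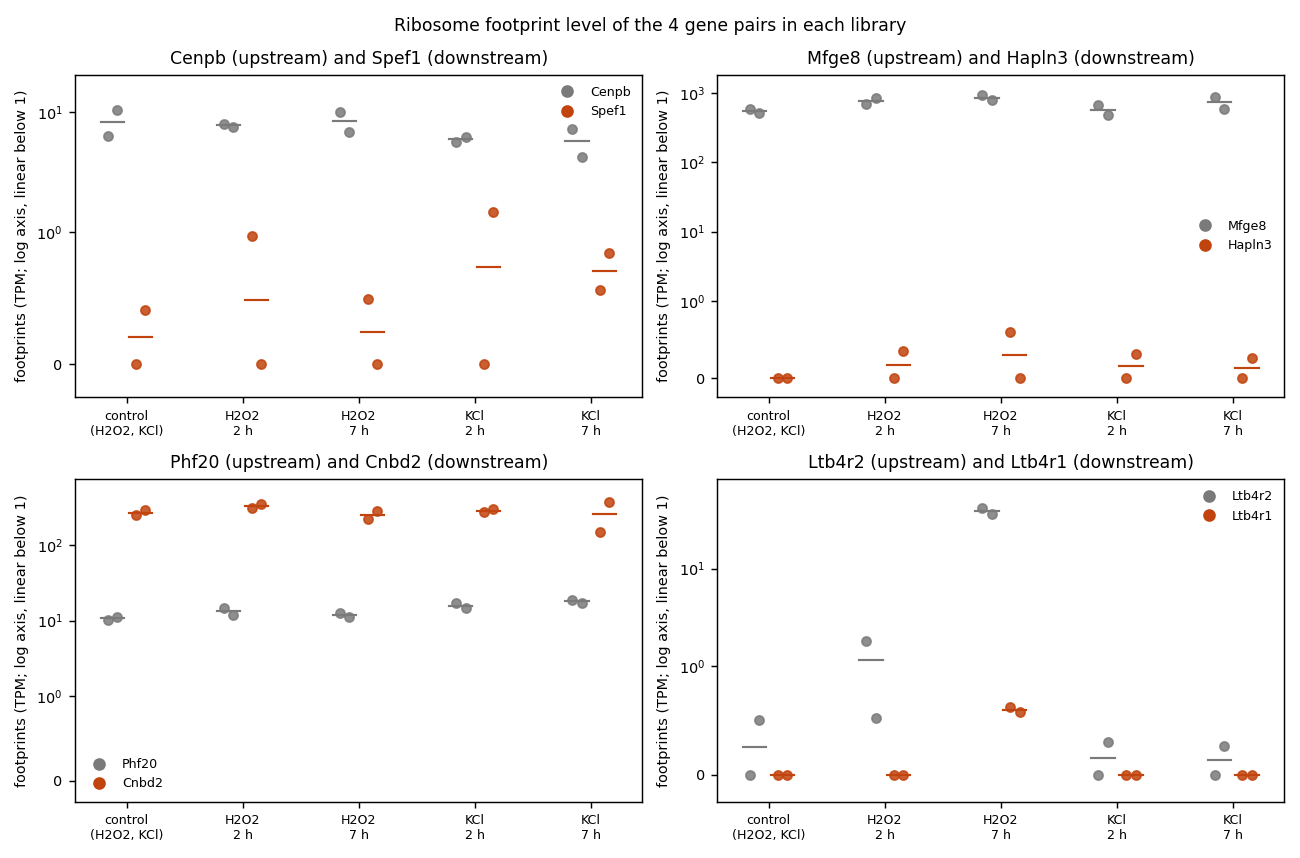
Footprint level in TPM (log axis, linear below 1) of the upstream gene (grey) and the downstream gene (orange) of each pair in the 5 groups with labelled footprint libraries. Points are libraries and short lines the mean of 2. Ltb4r2 rises to 41.58 and 36.07 at H2O2 7 h while Ltb4r1 stays below 1, and Cnbd2 lies between 146.18 and 371.75 in every group.

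Footprints of Ltb4r2 rose at H2O2 7 h. They numbered 140 and 130 in those libraries, against 0 and 2 in the control, 3 and 3 at H2O2 2 h, and 0 and 1 at each time of KCl. Only the H2O2 7 h libraries held more than 3, and the contrasts of the other groups with the control rest on too few footprints to show a change. The rise over control was 7.03 on the log2 scale (SE 0.64, edgeR's quasi-likelihood test, adjusted p = 5.43e-06, range over the alternatives 5.61e-10 to 0.000168), from 0.275 ± 0.389 to 38.7 ± 1.71 CPM (SD, n = 2), higher in 2 of 2 libraries. With no filter on low counts it was 6.99 (SE 0.61, edgeR adjusted p = 5.61e-10 over 14615 genes). Its size depends on the few control counts: the ratio of footprint CPM, both libraries summed, was 156 with a 95% exact interval of 42.9 to 1300. Without the second control library the log2 value was 10, and without the first it was 6.0. H2O2 for 7 h exceeded H2O2 for 2 h by 5.31 (SE 0.57, edgeR adjusted p = 2.21e-05, range 7.29e-10 to 0.00146). Ltb4r2 was the 1 member called higher at H2O2 7 h, where 17.2% of the 10545 genes tested were called higher and 10.6% lower, and the 1 called higher at 7 h against 2 h of H2O2 (18.7% higher and 11.1% lower of all genes). Of 317 genes whose RNA rose by at least 5 on the log2 scale at H2O2 7 h, 120 had a footprint test. Of these 120, 118 were called higher in footprints. A gene with few control footprints passes the filter only if another group has more, so this share is partly set by the filter. Ltb4r1 is among the genes with no test. Ltb4r2 is among the 120, and its own 7.03 compares with their median of 6.44, under the same limit.

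Footprints of Ltb4r1 were few. Its RNA stood at 669 and 553 counts at H2O2 7 h, close to the 879 and 694 of Ltb4r2, yet it had 2 and 2 footprints there against 140 and 130. The other 8 footprint libraries held none. Read as a limit of 3 counts, 0 over both control libraries stands for 0.398 CPM, and its exact 95% interval ends at 0.49 CPM. The exact 95% lower bound of the ratio of 4 footprints at H2O2 7 h to 0 in the control was 0.765, so a rise was not detectable at this depth. In the fit without a filter on low counts, Ltb4r1 had a log2 difference of 4.01 (SE 2.4) with an adjusted p of 0.273 by edgeR. Per length, Ltb4r2 had 41.58 and 36.07 TPM of footprints at H2O2 7 h and Ltb4r1 had 0.62 and 0.58.

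Footprint CPM over RNA CPM gave 1.49 (95% interval 1.30 to 1.69) for Ltb4r2 and 0.0283 (0.00771 to 0.0728) for Ltb4r1 at H2O2 7 h. The intervals cover counting error only. The ratio of the receptors, footprints per RNA of Ltb4r2 over Ltb4r1, was 52.4 over both libraries (20.1 to 194). Joined by replicate number, it was 53.3 (14.4 to 445) for replicate 1 and 51.8 (13.9 to 434) for replicate 2. No label pairs the footprint and RNA libraries in this way, and each value rests on 2 footprints of Ltb4r1. Across 11578 genes with at least 50 RNA counts in that condition the median footprint to RNA ratio was 0.73, and 0.916% of genes were below Ltb4r1. Of 23 other downstream genes with a read-in call in the condition, with a median of 0.642 and a lowest value of 0.0286, none was below it.

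**Figure D4:**
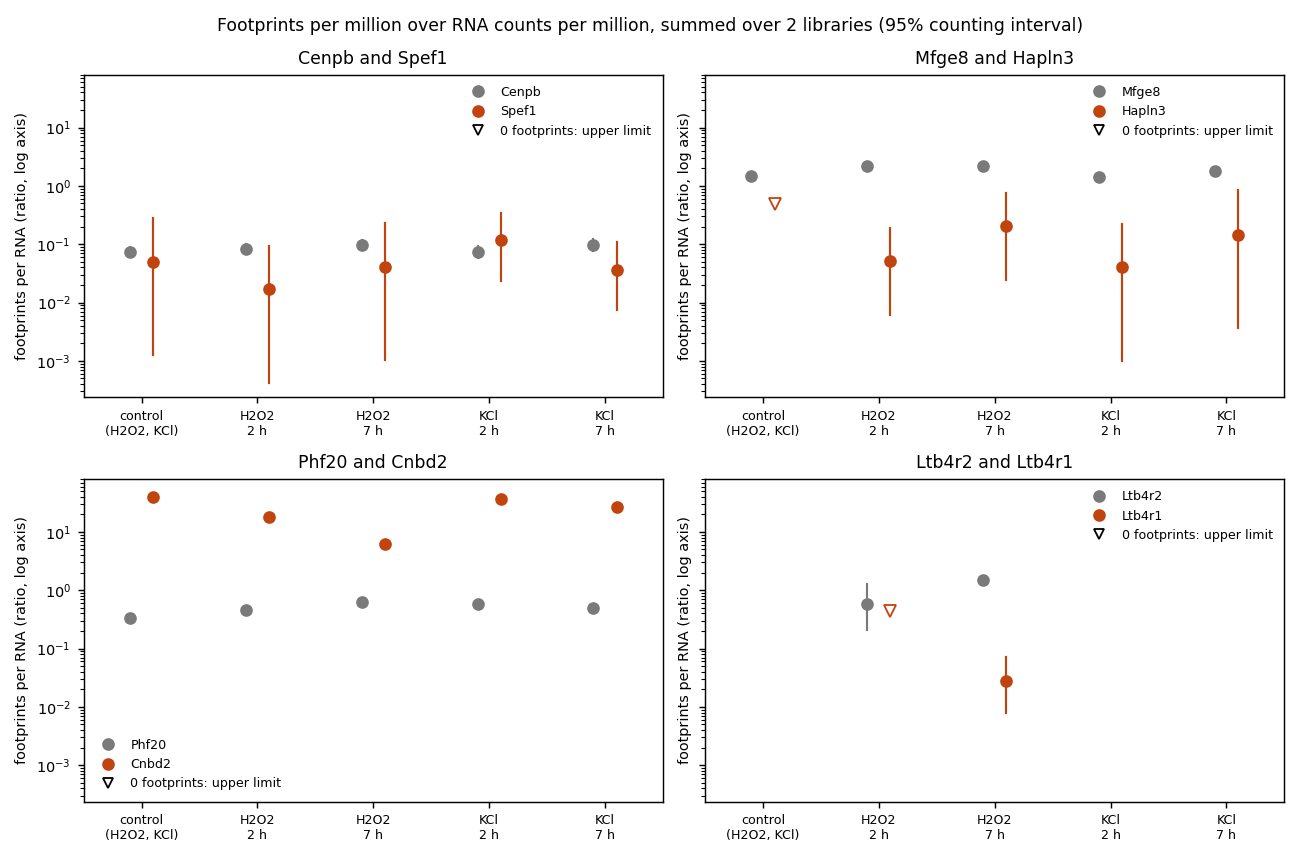
Footprint CPM over RNA CPM (log axis) of each gene in the 5 groups, from counts summed over 2 libraries, with 95% intervals for counting error. Open triangles are upper limits where no footprint was counted, and groups with under 50 RNA counts are left out. At H2O2 7 h Ltb4r2 stands at 1.49 and Ltb4r1 at 0.0283, and Cnbd2 at 6.16, against 39.7 in the control.

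Spef1 had 9 footprints in all 10 libraries together, with at most 3 in any one. There were 0 and 1 in the control, 1 and 0 at H2O2 2 h, 1 and 0 at H2O2 7 h, 0 and 3 at KCl 2 h, and 1 and 2 at KCl 7 h. Its ratio to control was 3.39 at KCl 7 h with an exact 95% interval of 0.272 to 178, and 1.14 (0.0145 to 89.2) at H2O2 2 h. Both intervals hold 1 and also the RNA ratios of 5.26 and 3.47, so a change of either kind was not detectable at this depth. The level relative to RNA is better fixed. Footprints per RNA were 0.0168 (0.000423 to 0.0937) at H2O2 2 h and 0.0368 (0.00758 to 0.108) at KCl 7 h, against a median of 0.637 and 0.649 over all genes. In the control the value was 0.0496 (0.00125 to 0.279), and the intervals of all 5 groups overlapped. Cenpb had a low value too, 0.0742 to 0.0981 in the 5 groups, although its RNA was far higher. No labelled footprint library came from heated cells, where Spef1 RNA was highest, and footprint columns without a labelled sample were not used.

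Hapln3 had 6 footprints in all, 0 and 0 in the control, 0 and 2 at H2O2 2 h, 2 and 0 at H2O2 7 h, and 0 and 1 at each time of KCl. At H2O2 2 h, where its RNA stood at 190 and 184 counts, footprints per RNA were 0.0513 (0.0062 to 0.187), and at KCl 2 h 0.0400 (0.00101 to 0.226). Among genes with RNA within a factor of 1.5 of Hapln3 at H2O2 2 h, 6.2% had a lower ratio and 2.28% had no footprint at all. Its RNA ratio to control of 5.85 was not matched by a detectable gain in footprints, but the lower bound against a control of 0 footprints, 0.213, does not limit a gain. Mfge8 had between 1391 and 5887 footprints per library. Its footprint TPM was above both control libraries in both libraries of H2O2 2 h, H2O2 7 h and KCl 7 h, with log2 differences of 0.57, 0.54 and 0.46 (SE 0.22 each), and none passed the test (edgeR adjusted p = 0.205, 0.0789 and 0.148). With only the groups compared in the fit, H2O2 7 h passed (adjusted p = 0.0291), and over all alternatives it ranged up to 0.313.

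Cnbd2 differed from the other downstream genes in having many footprints in every group, among them the control. They numbered 478 and 529 in the control, 235 and 934 at H2O2 2 h, 340 and 465 at H2O2 7 h, 400 and 444 at KCl 2 h, and 195 and 655 at KCl 7 h. As CPM that is 122 and 147 in the control, 161 and 181 at H2O2 2 h, 107 and 140 at H2O2 7 h, 131 and 145 at KCl 2 h, and 67.6 and 173 at KCl 7 h. The groups overlapped except at H2O2 2 h, where both libraries were higher, and no comparison with control passed the test. The libraries of KCl 7 h stood furthest apart. Without the second of them Cnbd2 was called lower at 7 h than at 2 h of KCl (log2 difference -0.98, edgeR adjusted p = 0.0479, range over the alternatives up to 0.974), where with all libraries the value was -0.15.

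At H2O2 7 h the footprint difference of Cnbd2 was -0.18 on the log2 scale, with a 95% interval of -0.89 to 0.52, while its RNA differed by 2.62. The upper bound of 0.52 lies below the RNA difference. At H2O2 2 h the footprint interval, -0.33 to 1.07, also ended below the RNA difference of 1.61. The change of footprints relative to RNA (translational efficiency, the interaction term of a fit over both kinds of library) was -2.81 (SE 0.40) at H2O2 7 h, lower for 24 of 10480 genes, and -1.27 (SE 0.41) at H2O2 2 h. It was -0.70 at KCl 7 h and -0.22 at KCl 2 h. For Ltb4r2 at H2O2 7 h the same measure was -1.08 (SE 1.3, 95% interval -3.82 to 1.67), lower for 322 of 10480 genes. That interval holds 0, so whether its footprints fully matched its RNA was not settled. Footprints per RNA of Cnbd2 were 39.7 (34.7 to 45.5) in the control and 6.16 (5.62 to 6.75) at H2O2 7 h.

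That control value is itself unusual: of 11376 genes with at least 50 RNA counts, 7 had a higher one. Scand1, a small gene at chr2:156311846-156312704, shares 759 bases with the start of Cnbd2. It had 39 and 65 footprints in the control and 64 and 94 at H2O2 7 h, with 57.68 and 71.87 TPM of RNA in the control. The pseudogenes Gm14251 (chr2:156322373-156322742) and Gm14253 (chr2:156346657-156348051) also lie within the span of Cnbd2 and have no counts of their own here. Whether the counting used strand is not stated in the sources used here, so reads over the bases shared with Scand1 cannot be assigned with certainty. The part of Scand1 or of other sequences in the counts of Cnbd2 was not tested, so its footprint values may not describe Cnbd2 alone.

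Phf20 had 126 and 126 footprints in the control and 140 and 197 at KCl 7 h. As CPM these are 32.1 and 35 against 48.5 and 52.2, without overlap. The rise was 0.73 on the log2 scale (SE 0.20, edgeR adjusted p = 0.0221, range over the alternatives 0.0204 to 0.126), and Phf20 was the 1 member called higher at KCl 7 h, where 10.5% of genes were called higher and 9.83% lower. The call was lost whichever of the 4 libraries was left out, with adjusted p from 0.067 to 0.126, and with limma on log2(TPM + 1) (0.0619). At KCl 2 h the difference was 0.53 (SE 0.20, edgeR adjusted p = 0.152). Footprints of Phf20 per RNA were 0.33 in the control and between 0.462 and 0.628 in the 4 stress groups.

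Cenpb had 23 to 75 footprints per library. Its log2 differences were -0.04, -0.10, -0.44 and -0.53 at H2O2 2 h and 7 h and KCl 2 h and 7 h (SE 0.34 to 0.35), none past the test by edgeR (adjusted p = 0.973, 0.862, 0.55 and 0.304). At H2O2 2 h no member was called, against 1.14% of genes called higher and 0.768% lower. The same held at KCl 2 h (1.79% higher, 5.06% lower) and at 7 h against 2 h of KCl (12.1% higher, 8.43% lower). The shares of genes called at 2 h are so low that 0 of 5 is near the background. At H2O2 2 h 1600 genes had an RNA rise of at least 1 on the log2 scale. A footprint test was possible for 437, and 17.6% of those were called higher in footprints. At KCl 2 h 380 of 1125 were tested and 26.6% of those called. The values were 1264 of 2338 and 81.2% at H2O2 7 h, and 783 of 1620 and 56.4% at KCl 7 h. The filter on low counts partly sets these shares too.

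**Figure D5:**
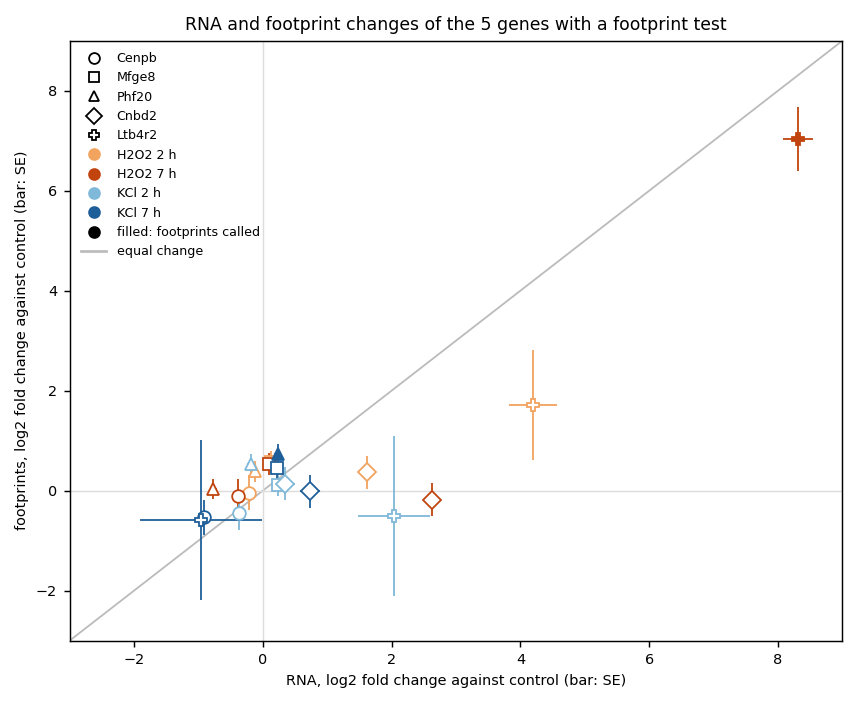
Log2 fold change against control of footprints (vertical) and RNA (horizontal) for the 5 genes with a footprint test, in 4 stress groups. Bars are standard errors, symbols genes, colours stresses, and filled symbols passed the footprint test. The grey line marks equal change: Ltb4r2 at H2O2 7 h lies somewhat below it (8.31 and 7.03), and Cnbd2 at H2O2 7 h lies far below it (2.62 and -0.18).

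Over the 8 RNA groups the downstream genes had different partners in profile. By the Pearson correlation of mean log2(TPM + 1), given as a description over 8 group means that share libraries and controls, Spef1 was most like Katna1 (0.971), Serpinb9e (0.968) and Dipk2a (0.968), all highest at 44 C, and its correlation with Cenpb was -0.669. Hapln3 was most like Ankrd7 (0.983), Rcan1 (0.980) and A3galt2 (0.977), highest at H2O2 2 h, with 0.645 for Mfge8. Cnbd2 was most like Ttc19 (0.991), Slc25a33 (0.966) and Fam83g (0.960), highest at H2O2 7 h, with -0.757 for Phf20. Ltb4r1 was most like Evpl (0.994), Ptprv (0.994) and Hmha1 (0.993), with 0.995 for its own neighbour Ltb4r2. Of the 4 downstream genes, Ltb4r1 alone followed the profile of its upstream partner this closely. Both receptors were far higher at H2O2 7 h than in any other group, which weighs heavily in this value. With a pseudocount of 0.1 TPM in place of 1 it was 0.978, below Evpl (0.981).

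Genes that act with the members were counted from lists of their pathways. The background in RNA was wide: 27.3% of 13256 genes were called higher and 26.5% lower at H2O2 2 h, 39.4% and 31.1% at H2O2 7 h, 27.2% and 27.0% at KCl 2 h, and 37.2% and 31.6% at KCl 7 h. In heat, 35.4% of 12747 genes were called higher and 35.7% lower at 44 C, and 31.7% and 31.9% at 42 C. The median log2 difference over all genes was between -0.014 and 0.075.

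Of 15 other leukotriene genes, which make, modify or sense these lipids, 9 had enough RNA for a test at H2O2 7 h. There 6 rose and 2 fell (median 0.73), while 1 rose and 1 fell at H2O2 2 h, 1 rose at KCl 2 h and 3 fell at KCl 7 h. Alox5, the lipoxygenase that starts leukotriene synthesis, rose from 0.01 to 1.44 TPM (log2 difference 6.97, SE 0.67, edgeR adjusted p = 3.63e-07) and Ggt5, which trims cysteinyl leukotrienes, from 0.015 to 0.745 TPM (5.64, SE 0.74, adjusted p = 1.41e-05), so both stayed far below Ltb4r2. In footprints 5 of the 15 were tested, of which 3 rose and 1 fell at H2O2 7 h (17.2% and 10.6% of all genes). At 44 C 1 rose and 5 fell of 8.

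Of 19 genes of motile cilia, 5 had enough RNA for a test, and none had enough footprints. At H2O2 2 h 3 of the 5 rose, at H2O2 7 h 2, at KCl 2 h 1, at KCl 7 h 3 and at 44 C 1, and none fell. At 42 C 1 rose and 3 fell. At 44 C, where Spef1 was highest, the median of the 5 was -0.03. Cfap74, a component of motile cilia, rose at H2O2 7 h from 0.915 to 4.13 TPM (log2 difference 2.27, SE 0.19, edgeR adjusted p = 6.55e-08), and Spag17 at H2O2 2 h from 0.015 to 0.115 TPM (3.05, SE 0.73, adjusted p = 0.00288).

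Of 18 centromere genes other than Cenpb 16 were tested. At H2O2 7 h 9 fell and 3 rose, among them Cenpa, the histone variant of centromeres, which fell from 207 to 66.8 TPM (log2 difference -1.62, SE 0.075, edgeR adjusted p = 1.29e-10), and Cenpl, which fell from 12 to 2.91 (-1.96, adjusted p = 6.71e-09). At KCl 7 h, where Cenpb was lowest, 6 rose and 6 fell. In footprints 16 were tested, of which 3 fell and 1 rose at H2O2 7 h (median -0.33), against 10.6% lower and 17.2% higher of all genes.

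Of 12 other members of the NSL and MOF acetyltransferase complexes, in which Phf20 works, 9 rose and 1 fell in RNA at KCl 7 h. In footprints, where all 12 were tested, 4 rose and none fell (median 0.19), against 10.5% higher and 9.83% lower of all genes. Ogt, which adds N-acetylglucosamine to proteins, rose from 51.9 to 204 TPM (log2 difference 2.07, SE 0.073, edgeR adjusted p = 3.99e-11), and Kansl2, a subunit of NSL, from 120 to 399 TPM (1.80, adjusted p = 1.71e-11). Of 16 hyaluronan genes 10 were tested at H2O2 2 h, where 5 rose and 3 fell, and 7 rose and 2 fell at H2O2 7 h. The hyaluronan synthase Has3 rose at H2O2 7 h from 0.07 to 1.67 TPM (4.67, adjusted p = 1.03e-09), and Has1 at 42 C from 0.055 to 1.38 TPM (4.76, adjusted p = 4.61e-07). Of 15 genes for the uptake of dying cells, 8 rose and 1 fell at KCl 2 h, and 5 rose and 7 fell at H2O2 7 h. Gas6, which like Mfge8 bridges phosphatidylserine to a receptor, rose there from 0.27 to 1.48 TPM (2.53, adjusted p = 4.56e-06), and the adaptor Gulp1 fell from 64.1 to 12.8 TPM (-2.25, adjusted p = 2.32e-11, all by edgeR).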

How the data were processed

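PolyA RNA (16 libraries) and ribosome footprints (10 libraries) of NIH3T3 cells were used as deposited. STAR, RSEM, Bowtie and the build mm10 (GRCm38) are named in the submitters' processing notes, with no versions or roles; RNA libraries were made with the NEB E7760 kit, per the labels' protocols. Expected counts, all of them whole numbers here, were deposited by the authors for each gene, with TPM values, which divide by transcript length. Read-in estimates, a ratio per pair and library, were deposited by the authors without a formula, with true or false DoG and read-in calls. A further 12 footprint columns had names of no sample in the labels and stayed unused.

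Counts were fitted with edgeR 4.0.16 in R 4.3.3 (quasi-likelihood test, TMM, filterByExpr, Benjamini-Hochberg over all genes, threshold 0.05), with the groups of an experiment sharing one spread: 10545 genes in footprints, 13256 in RNA of H2O2 and KCl, 12747 in heat, and 10480 for translational efficiency. Each stress was compared with its own control, and 7 h with 2 h in footprints. Fits were tested on simulated data with changes far smaller than that of Ltb4r2 footprints at H2O2 7 h, so this check does not cover that change. Alternatives were RLE size factors, DESeq2 1.42.0, no filter, a replicate block, only the groups compared, limma 3.58.1 on log2(TPM + 1), and leaving out each library. Footprint intervals at 95% are exact (Poisson or binomial), and a count of 0 was read as a limit of 3 counts; PCR reads are not independent molecules, so these cover counting error only. No replicates were identical. The members and lists were chosen with earlier results of these data known. Genes named were the 8 members, the 3 genes most like each downstream gene, up to 2 of each list with the largest change, the 3 pairs with the highest estimates and the nearest genes. The 3 called pairs, Scand1, Cideb and Nop9's pair were added after their values were seen. Sequences are from RefSeq (GRCm38.p6), for 6 of 8 members.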

Additional observations from a re-analysis of the deposited data

Results flagged for a closer look

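Footprints of Ltb4r2 differed between the durations of H2O2: the log2 value at 7 h exceeded that at 2 h by 5.31 (SE 0.57, edgeR adjusted p = 2.21e-05), tested directly, from 3 and 3 footprints to 140 and 130. The gene passed the filter on low counts only through H2O2 7 h. With 0 and 1 footprints at each time of KCl, the durations of KCl could not be compared.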

How the results depend on the processing

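The rise of Ltb4r2 footprints at H2O2 7 h and its excess over 2 h passed the threshold under all 10 alternatives of each. The single call at KCl 7 h, Phf20, became 0 calls with limma on log2(TPM + 1) and without any 1 library (0 to 0, log2 value of Phf20 0.65 to 0.82). At H2O2 7 h 2 members were called with only the groups compared. At 7 h against 2 h of KCl, leaving out 1 library gave 0 to 1 calls. The number of downstream genes with RNA at least 1 higher on the log2 scale was 4, 2, 2, 1, 1 and 0 at H2O2 2 h, H2O2 7 h, KCl 2 h, KCl 7 h, 44 C and 42 C. At H2O2 2 h it was 3 with limma. At KCl 2 h it was 1 with only the groups compared and 1 with limma. At 42 C it was 1 with no filter and 0 to 1 without 1 library.

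Signs of footprint differences that passed no test turned in the following. With limma they were 0.04 for Cenpb at H2O2 7 h, and 0.09 (Cenpb) and 0.16 (Mfge8) at 7 h against 2 h of H2O2. For Cnbd2 at KCl 7 h they were 0.01 with RLE size factors and 0.01 with DESeq2. Without 1 library at a time, Cenpb ran from -0.40 to 0.40 (H2O2 2 h), -0.49 to 0.34 (H2O2 7 h), -0.74 to 0.01 (KCl 2 h), -0.33 to 0.12 (7 h against 2 h of H2O2) and -0.50 to 0.26 (KCl likewise). Phf20 at H2O2 7 h ran from -0.09 to 0.12, and Mfge8 from -0.07 to 0.30 at KCl 2 h and from -0.17 to 0.13 at 7 h against 2 h of H2O2. Cnbd2 ran from -0.84 to 0.51 at KCl 7 h and from -0.98 to 0.37 at 7 h against 2 h of KCl. Ltb4r2 ran from -3.01 to 2.47 (KCl 2 h), -2.98 to 2.40 (KCl 7 h) and -2.47 to 2.43 (7 h against 2 h of KCl). Its translational efficiency ran from -3.46 to 2.85 (H2O2 2 h), -2.15 to 4.20 (H2O2 7 h) and -7.27 to 2.68 (KCl 2 h). The cause was not tested.

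With the replicate number as a block, 1 member was called in footprints at H2O2 7 h and 1 at KCl 7 h, as without the block, and no call changed with it. No label says that the numbers pair the libraries. The correlation over genes of same-numbered deviations was -0.38 to 0.42 over the 10 pairs of footprint groups, negative in each pair with H2O2 2 h and at least 0.2 in the others, -0.053 to 0.054 in RNA of H2O2 and KCl, and -0.025 to 0.12 in heat. Fold changes on log2(TPM + 1) understate low genes: Ltb4r2 RNA at H2O2 7 h was 4.45 there. Depth limits Spef1, Hapln3 and Ltb4r1, whose footprints numbered 9, 6 and 4 in all. With a pseudocount of 0.1, 2, 1, 2 and 1 of the 3 most alike genes of Spef1, Hapln3, Cnbd2 and Ltb4r1 were shared.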
